A study of Homo sapiens with 10 samples.

Results

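The regions described here are promoters that carried the active histone mark H3K27ac in every MDA-MB-453 library and in no SKBR3 library. They were chosen by their peaks. All 8 H3K27ac peak lists of the series were merged on chromosomes 1 to 22 and X wherever peaks overlapped by 1 bp or more, which gave 76044 regions. A region was kept when it held a peak in all 4 MDA-MB-453 lists, held none in any SKBR3 list, and lay no farther than 1 kb from the start of transcription (TSS) of a protein-coding gene. This left 702 promoter regions at 717 genes, out of 7998 regions of that pattern anywhere in the genome and 12348 promoter regions of any pattern. The presence or absence of peaks in each line selected the members, so the contrast between the lines is given below as a description and was not tested. The rule asks for a peak both with and without TWEAK, so a promoter gained or lost outright with TWEAK could not be a member. Differences in the height of the mark between treatments were not used by the rule, and these were tested.

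MDA-MB-453 and SKBR3 are established breast cancer cell lines, and each stands for itself alone. Cells of both lines were serum starved for 8 h and either left untreated or given the cytokine TWEAK, the ligand of the Fn14 receptor, at 10 ng/ml for 48 h with a replenishment after 24 h. Untreated and TWEAK groups of a line had 2 libraries each, and 1 input per line had no peak list. MDA-MB-453 lists held 36148 to 37813 peaks and SKBR3 lists, the longer ones, 43684 to 51687. The depth of the libraries is unknown, so these counts do not show how well a weak promoter peak was found in either line.

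H3K27ac, acetylation of lysine 27 on histone H3, marks nucleosomes beside promoters and enhancers in use. At a promoter the mark usually flanks the TSS, and silent promoters lack it. MDA-MB-453 is known as a luminal line with apocrine traits, and the study counts both lines as HER2 breast cancer. As a check of the lines, 11 marker genes of MDA-MB-453 and of luminal HER2 cells (*FOXA1*, *SPDEF*, *GATA3*, *XBP1*, *FGFR4*, *ALCAM*, *TFF3*, *KRT8*, *KRT18*, *EPCAM* and *ERBB2*) had a promoter peak in all 8 lists. None of 32 immune, stromal and endothelial marker genes was a member, beside 3.59% of all protein-coding genes. That count is no check of the lines, since a gene that is no member can still be marked. Among the 32, 5 had a promoter peak in both lines, 3 (*CSF1R*, *CDH5* and *FAP*) a SKBR3-specific promoter and 24 no promoter peak in either line.

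Sequences of 5 members are shown because their promoters carry the results that follow: the highest ranked member (*KCNK1*), a pair of zinc finger genes from the longest run of neighbouring members (*ZNF429* and *ZNF675*), a zinc finger gene from another run (*ZNF790*) and an interferon-stimulated gene (*IFIT1*). Each reads 5′ to 3′ on the strand of the gene, ends before the TSS that RefSeq gives, and is credited to RefSeq (GRCh38.p14). Only the longest stretch free of annotated exons is kept. The last base shown lies 78 bases before the TSS in *IFIT1*, 9 in *ZNF675* and 1 in the others. Capitals mark the CCAAT box (CCAAT) and, in *IFIT1*, the interferon-stimulated response element, searched as GAAA, a gap of 2 bases and GAAA, each on both strands.
KCNK1 (chr1:233613970-233614105, + strand): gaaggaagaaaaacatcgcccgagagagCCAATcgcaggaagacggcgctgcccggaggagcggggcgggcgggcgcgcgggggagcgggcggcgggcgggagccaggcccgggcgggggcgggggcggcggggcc
ZNF429 (chr19:21505402-21505601, + strand): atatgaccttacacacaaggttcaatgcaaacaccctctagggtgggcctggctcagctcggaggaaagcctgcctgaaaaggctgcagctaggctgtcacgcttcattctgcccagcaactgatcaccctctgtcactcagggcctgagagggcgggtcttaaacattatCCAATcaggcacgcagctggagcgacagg
ZNF675 (chr19:23687221-23687412, - strand): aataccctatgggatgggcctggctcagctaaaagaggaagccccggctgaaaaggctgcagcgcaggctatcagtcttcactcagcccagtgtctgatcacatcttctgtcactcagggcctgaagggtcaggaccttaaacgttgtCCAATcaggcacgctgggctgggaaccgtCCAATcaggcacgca
ZNF790 (chr19:36838388-36838587, - strand): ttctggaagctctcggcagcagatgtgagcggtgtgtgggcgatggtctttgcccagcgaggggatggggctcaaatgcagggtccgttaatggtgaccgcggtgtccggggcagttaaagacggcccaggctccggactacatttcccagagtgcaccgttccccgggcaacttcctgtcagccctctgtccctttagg
IFIT1 (chr10:89392423-89392545, + strand): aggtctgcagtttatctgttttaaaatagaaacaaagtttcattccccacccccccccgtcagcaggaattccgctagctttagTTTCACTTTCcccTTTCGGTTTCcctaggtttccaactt
*ZNF429* and *ZNF675* shared an unbroken run of 19 bases and both carried CCAAT followed by the same bases, whereas *ZNF790* shared at most 9 with either of them and held no CCAAT in the stretch shown. In all, 504 of the 717 member genes had a RefSeq promoter whose TSS lay at the member region. *CDH1* had none in that table.

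The level of a promoter is given as a percentile: the rank of its highest fold enrichment (signal over local background, a ratio the peak caller wrote) among all peaks of the same list, where 100 is the strongest. Members were moderate promoters. Their mean percentile over the 4 MDA-MB-453 lists had a median of 47.7 and a middle range of 31.6 to 65.8, against a median of 79.6 for the 8711 promoters found in all 8 lists. Of the members, 22 (3.13%) ranked above the 90th percentile, compared with 25.5% of the shared promoters. They were also narrower, with a median of 1191 bp covered by peaks against 2301.5 bp. The 7296 MDA-MB-453-specific regions away from protein-coding promoters ranked lower still, at a median of 35.4. Since a weak peak is easier to miss in a list than a strong one, rank and membership are tied by the rule, and these values are descriptive.

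**Figure D1:**
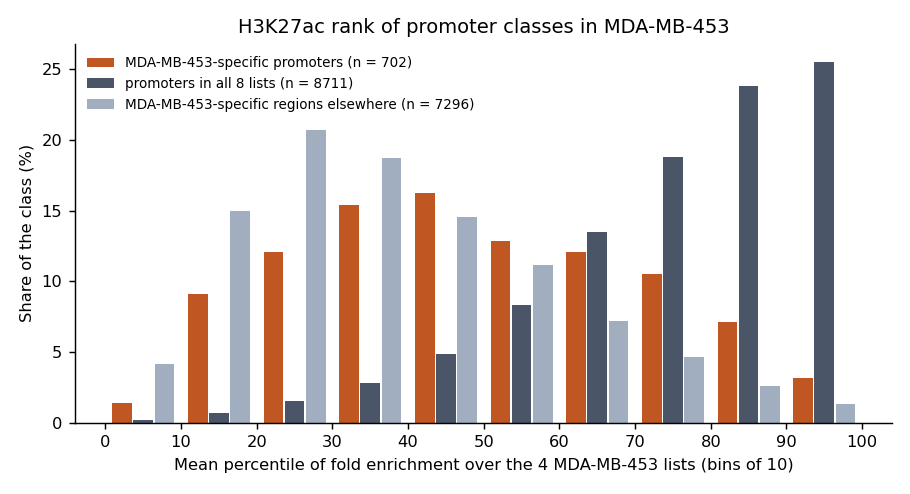
Share of each class of region (vertical axis, percent of the class) by mean percentile of fold enrichment over the 4 MDA-MB-453 lists (horizontal axis, bins of 10). Members peak between the 40th and 50th percentile, with 16.2% of them there, while 25.5% of promoters in all 8 lists sit in the highest bin.

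Levels repeated well between libraries. The 4 library medians of the members lay between 46.9 and 49.3, and a member's percentile varied by a median SD of 4.98 (n = 4 libraries). The SD was above 10 for 98 members, such as *EFNB1* (27.6 ± 15.6, SD, n = 4), a ligand of Eph receptors. In all 4 lists 379 members (54.0%) passed q under 1e-05, and 678 were a single peak in each. The TSS lay inside the region for 584 members (83.2%). At the 1 kb limit, the members just inside were *CD209*, *EFCC1* and *LRRC63* at 984, 986 and 992 bp, and the regions just outside belonged to *DTNA* and *NFATC1*, both at 1007 bp, and *TTYH2* at 1014 bp.

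A graded series of promoters connected the members with the shared ones. Of 10079 promoters in all 4 MDA-MB-453 lists, 702 had no SKBR3 peak (6.96%, the share the rule itself fixes), 191 had one in 1 SKBR3 list, 211 in 2, 264 in 3 and 8711 in 4. Their median percentiles in MDA-MB-453 were 47.7, 51.6, 52.5, 56.3 and 79.6. A further 107 promoters missed membership by 1 MDA-MB-453 list, with a median of 17.8. Reads below the caller's threshold were not used here, so a weak SKBR3 signal and none at all cannot be told apart.

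The strongest members were led by *KCNK1*, which encodes a tandem-pore potassium channel. Its promoter ranked at 99.9 in every MDA-MB-453 list, with a fold enrichment of 44.3 and 44.3 in untreated and 40.0 and 38.2 in TWEAK libraries. The rank did not separate the treatments, although the fold enrichment was higher in both untreated libraries. *ZNF254* followed at 98.0 and 97.4 in untreated and 96.9 and 97.6 in TWEAK libraries, and its fold enrichment lay between 21.5 and 26.1. *FMO1*, a flavin monooxygenase of drug metabolism, ranked at 96.9 ± 0.36 (SD, n = 4), and *PIM3*, a serine/threonine kinase, at 96.8 ± 0.34. The nearest SKBR3 peak was 10.2 kb from the *KCNK1* region, 25.8 kb from *FMO1* and 9.03 kb from *PIM3*, beside a median of 23.4 kb for all members.

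*MYT1*, a zinc finger factor of neural cells, had percentiles of 97.0 and 96.7 without and 95.6 and 94.5 with TWEAK. *DMBT1*, a secreted scavenger receptor of epithelia, stood at 95.6 ± 0.32 (SD, n = 4) and *SFMBT2*, a Polycomb group protein, at 94.7 ± 1.29. The remaining places of the first 10 went to *DTNA* (94.5 ± 0.08), *NR2F1* (94.5 ± 0.75) and *RAB6C* (94.3 ± 0.92). *NR2F1*, an orphan nuclear receptor, was also the widest member, with a mean of 21497.5 bp under peaks. *CDH1* (13558 bp), *LRP1B* (12391 bp), *GRM4* (10316 bp) and *SFMBT2* (10214.5 bp) came next in width. Width and rank did not always go together, since *GRM4*, a glutamate receptor, had a mean percentile of only 68.5. At the other end, *HLX* (0.078), *PLEKHM3* (4.21) and *GPR176* (7.10) had the lowest mean percentiles.

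**Figure D2:**
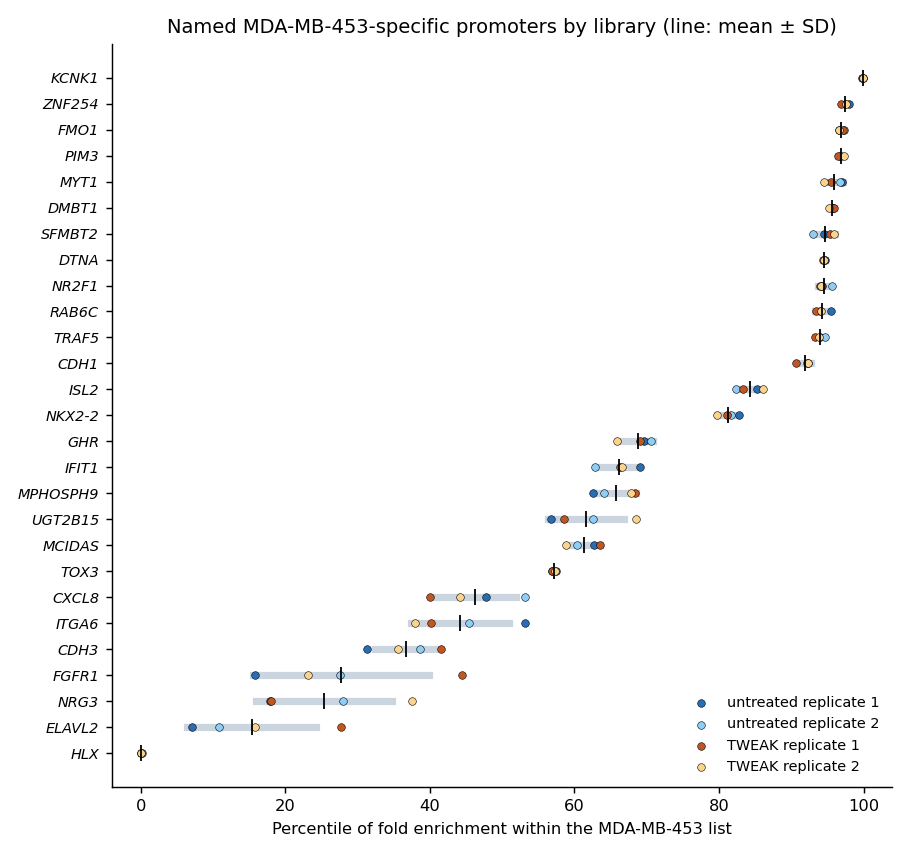
Percentile of fold enrichment within each MDA-MB-453 list (horizontal axis) for 27 named members (vertical axis). Points are the 4 libraries, coloured by treatment and replicate, the tick is the mean and the grey bar the SD. Strong members such as *KCNK1* and *DTNA* have overlapping points, while *FGFR1* spreads from 15.8 to 44.5.

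Genes linked to apocrine cells included *GHR*, *MPHOSPH9* and *TOX3*, from a list of 46 genes. On that list 24 genes had a promoter peak in both lines, 1 had a SKBR3-specific promoter and 11 had no promoter peak in either line. As background for the lists below, 3.59% of all 19962 protein-coding genes had a member promoter. That figure is the rule's own contrast and nothing is read from a difference to it. The classes of a list can overlap, since a gene with several promoters can be counted in more than 1 class. A gene counted as marked in both lines need not have a peak in every list. *GHR*, the growth hormone receptor, had percentiles of 69.7 and 70.5 without and 69.1 and 65.9 with TWEAK. *TOX3*, a chromatin protein linked to breast cancer risk, varied least, between 56.9 and 57.5. *MPHOSPH9* ranked at 65.7 ± 2.86 (SD, n = 4). The 3 genes were above the median of the members.

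Cell adhesion genes included both neighbouring classical cadherins of chromosome 16. *CDH1*, E-cadherin, the core protein of epithelial junctions, ranked at 92.4 and 92.2 in untreated and 90.6 and 92.3 in TWEAK libraries. *CDH3*, P-cadherin, was far lower, at 31.3, 38.6, 41.5 and 35.5 in the same order. The pair shared 1 SKBR3 peak-free stretch of 304 kb with 13 MDA-MB-453 regions. Of 37 luminal and epithelial identity genes *CDH1* was the single member, and 31 had a promoter peak in both lines. The cadherin and protocadherin family as a whole gave 7 members of 93 genes (7.53%), with a median percentile of 35.0. *ITGA6*, an integrin subunit of basal cells, ranked between 38.0 and 53.2, and both its TWEAK values were below both untreated values.

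Several lists covered receptors, ligands and pathway genes. From the TWEAK and NF-kB list of 47 genes, 2 were members: *TRAF5*, an adaptor of TNF receptor signalling, at 94.0 and 94.7 without and 93.2 and 93.9 with TWEAK, and *CXCL8*, a chemokine, at 47.8 and 53.2 without and 40.0 and 44.2 with it. On the same list 5 genes (*TAB2*, *TNFAIP2*, *TNIP1*, *IL6* and *TNF*) had a promoter specific to SKBR3 instead, and 32 had one in both lines. In the receptor tyrosine kinase list, *EPHA7*, *FGFR1*, *EFNB1* and *NRG3* were 4 members of 57 genes (7.02%), all in the lower range at mean percentiles of 25.4 to 32.7. Interleukins, chemokines and their receptors gave 3 members of 142 (2.11%), namely *CCL28* at 89.6 ± 1.98 (SD, n = 4), *IL1RL2* at 87.5 and *CXCL8*. TNF ligands and receptors gave 3 of 33 (9.09%), from *TNFSF10*, the ligand TRAIL, at 70.8 ± 3.08 to *TNFSF15* at 17.6, with *TNFRSF19* at 61.2. Of 56 steroid and drug metabolism genes 3 were members, led by *UGT2B15*, which conjugates androgens, at 61.6 ± 5.24.

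Developmental transcription factors formed another group. Homeobox genes gave 13 members of 149 (8.72%), against 3 genes with a SKBR3-specific promoter. *ISL2* (84.3 ± 1.72, SD, n = 4), *NKX2-2* (81.3 ± 1.25) and *IRX4* (76.4 ± 2.77) were among the highest ranked, and 10 of the 13 were above the median of the members. The other families of factors searched (SOX, FOX, TBX, PAX, GATA and KLF) gave 5 of 117 genes, all below that median. Neuronal and synaptic genes gave 7 of 50 (14.0%), namely *UNC5B*, *CELF4*, *SYP*, *ROBO2*, *SLIT2*, *NRXN3* and *ELAVL2*, at mean percentiles from 69.5 for the netrin receptor *UNC5B* down to 15.3 for the RNA binding protein *ELAVL2*. Of this list 34 genes had no promoter peak in either line and 4 had one in both. Solute carriers gave 13 members of 385 (3.38%) and ion channels 3 of 234 (1.28%). Cancer-testis antigens gave 0 of 100, and 89 of them had no promoter peak in either line.

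A further pair of lists was drawn up after the member genes had been seen, so their counts carry no weight as evidence. Interferon-stimulated genes, which respond to viral RNA and interferon, gave 16 members of 80 (20.0%), with 3 SKBR3-specific promoters and 45 genes marked in both lines. The 16 were *SLFN13*, *DDX60*, *HELZ2*, *TNFSF10*, *IFIT1*, *RIGI*, *PARP14*, *EIF2AK2*, *CGAS*, *SHFL*, *OAS2*, *IFI44*, *NLRC5*, *CMPK2*, *RSAD2* and *IFIT2*. *SLFN13* ranked at 89.0 and 84.6 in untreated and 90.4 and 89.9 in TWEAK libraries, and *DDX60*, a helicase, from 84.5 to 88.3. *IFIT1* ranged from 62.9 to 69.0 and *IFIT2* from 19.2 to 32.3. Interferon response elements, as marked in the *IFIT1* sequence above, were found in 6 of the 9 member genes on the list with a matching RefSeq promoter (66.7%), in 30 of 47 genes on the list that were no members (63.8%) and in 3.64% of all 27305 RefSeq promoters. The shares of members and other genes on the list lay close together, the first of them resting on 9 promoters.

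Motile cilia genes gave 15 members of 93 (16.1%), and 2 had a SKBR3-specific promoter. *MCIDAS*, a master regulator of multiciliated cells, ranked at 62.7 and 60.3 without and 63.6 and 58.9 with TWEAK. *CFAP99* (77.8 ± 4.70, SD, n = 4), *CFAP70* and *CFAP251*, all of which encode axoneme proteins, were the strongest, and 7 of the 15 were above the median of the members. The 15 regions had between 263 and 1908 bp under peaks, with a median of 959 bp, and 10 of them were narrower than the median member (1191 bp).

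**Figure D3:**
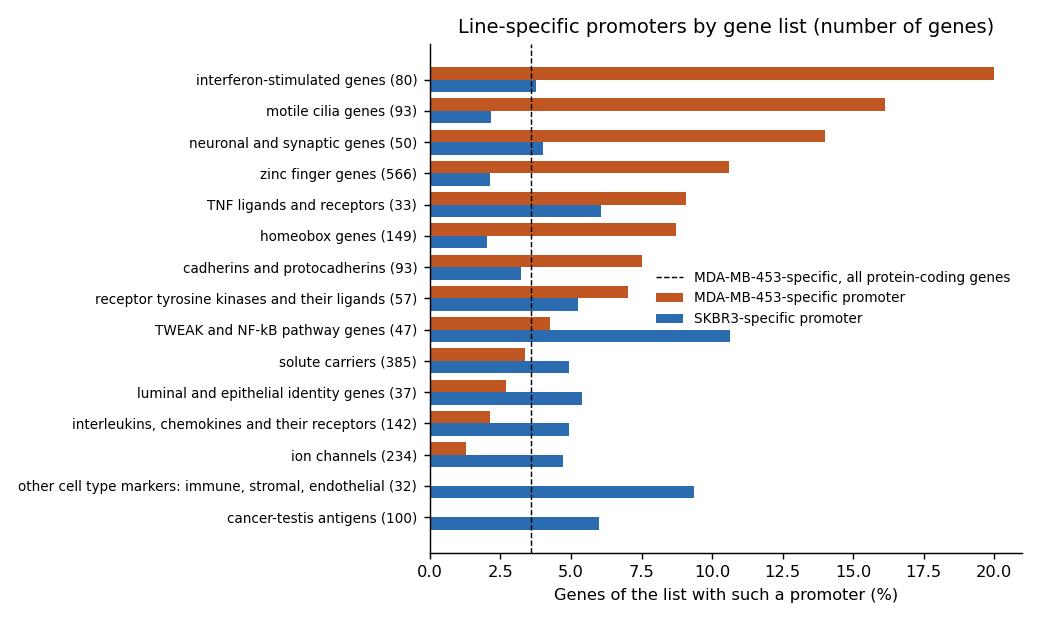
Share of the genes of each list (horizontal axis, percent, starting at 0; number of genes in brackets) with a MDA-MB-453-specific or a SKBR3-specific promoter. The dashed line is the share of all protein-coding genes with a MDA-MB-453-specific promoter, 3.59%. Interferon-stimulated genes (20.0%) and motile cilia genes (16.1%), both chosen after the members were seen, and neuronal genes (14.0%) reach farthest.

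Zinc finger genes made up the largest family of members. Of 566 genes named ZNF, ZFP, ZSCAN or ZKSCAN, many of which encode KRAB repressors that silence transposable elements, 60 (10.6%) had a member promoter and 12 (2.12%) a SKBR3-specific one. Their median percentile was 62.9, and 43 of their 60 regions were above the median of the members. Of the 60 genes, 41 were on chromosome 19, where 71 of 745 promoters in all 4 MDA-MB-453 lists were members (9.53%). Higher shares were seen on the X chromosome (43 members, 13.0%), chromosome 4 (46 members, 12.4%) and chromosome 18 (16 members, 10.7%), and the lowest on chromosome 16 (14 members, 2.97%).

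One run of neighbours stood out for its length, where runs were counted among promoters in all 4 MDA-MB-453 lists. Between the promoters of *ZNF737* and *ZNF254* (hg38, chromosome 19, 20564481 to 24035556), 21 consecutive promoter regions were all members, with no SKBR3 peak among them. The SKBR3 lists held no peak from 20238960 to 27635752, a stretch of 7.40 Mb, while the 4 MDA-MB-453 lists held 46 and 45 peaks there without and 40 and 40 with TWEAK. Past the last member the stretch runs into the centromere, where MDA-MB-453 had no peak either. The stretch holds 29 zinc finger genes, of which 18 were members and 0 had a SKBR3 promoter peak in any list. *RPSA2* and a gene without a symbol, ENSG00000283201, were members as well. These were strong members, with a median percentile of 79.9 and a range from 30.3, at the weaker promoter of *ZNF43*, to 97.5 at *ZNF254*. *ZNF429* stood at 94.4 and 94.6 without and 92.3 and 95.6 with TWEAK, and *ZNF675* at 90.3 and 93.7 without and 95.7 and 93.8 with it. Whether SKBR3 cells still carry this stretch was not tested, since no input coverage was used here. Reads from related genes can also map to more than 1 place, and how the authors treated such reads is not given in the sources used here.

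**Figure D4:**
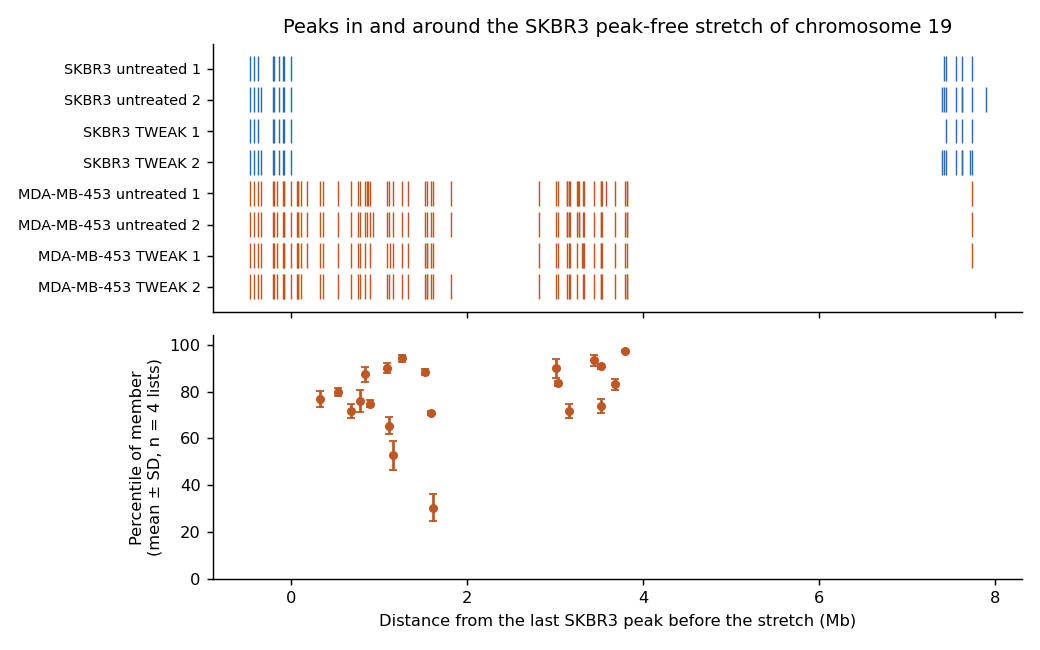
Peaks of the 8 lists (upper panel, 1 tick a peak) and percentile of the 21 members (lower panel, mean ± SD over 4 MDA-MB-453 lists) against distance in Mb from the end of the last SKBR3 peak before the stretch. The SKBR3 rows are empty for 7.40 Mb, while the MDA-MB-453 rows and the members fill the first part of it.

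Outside the stretch the share of zinc finger genes was lower: 42 of 537 such genes were members (7.82%), namely 23 of 232 elsewhere on chromosome 19 (9.91%) and 19 of 305 on other chromosomes (6.23%). A separate trio on chromosome 19 was formed by *ZNF790*, *ZNF568* and a gene without a symbol, with no SKBR3 peak between them. *ZNF790* itself had a pair of member regions, at mean percentiles of 90.5 and 67.1. In all, 11 runs of 3 or more members, consecutive among promoters in all 4 MDA-MB-453 lists, held 51 of the 702. Some of these runs were neither compact nor free of SKBR3 peaks. The run from *ANKRD18A* to *PIP5K1B* spanned 30087 kb and held 27 regions with a SKBR3 peak, and that from *CD209* to *PRR36* held 13. An X chromosome run joined *ARMCX6*, *ARMCX3* and *ARMCX2*, which encode armadillo repeat proteins, within 43.0 kb. The genes of these shorter runs were picked after their values were seen.

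Long stretches without a peak of the other line were commoner around members than around SKBR3-specific promoters. The stretch around 101 members (14.4%) was longer than 500 kb, compared with 42 of 729 SKBR3-specific promoters (5.76%) in the MDA-MB-453 lists. Members share such stretches: the 101 lay in 73 of them, and 21 were in the chromosome 19 stretch alone. Without that stretch the share was 80 of 681 members (11.7%). Examples, also picked afterwards, were *NRG3* (2075 kb) and *CELF4* (1530 kb). The median distance to the nearest SKBR3 peak was 23.4 kb, and it was under 1 kb for 17 members (2.42%). A loss of DNA in SKBR3 and a lack of acetylation cannot be told apart from peak lists.

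Some members had further specific regions close by. Within 50 kb of 249 members (35.5%) there was a MDA-MB-453-specific region away from promoters, against 17.0% of the promoters found in all 8 lists. Members and these regions were both chosen by the absence of SKBR3 peaks, whereas the shared promoters hold one. The contrast is therefore tied to the rule and is only a description. Up to 7 such regions accompanied a member, and the median number was 0.

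For some genes the line difference concerned 1 of several promoters. Of the 717 member genes, 105 (14.6%) had a SKBR3 peak in another region within 1 kb of a TSS of the same gene. For 76 of them (10.6%) it was in all 4 SKBR3 lists. The other region was not always at a separate promoter. At *FKBP11* and *PLA2G2A* it lay by the same TSS as the member region, and at *CLDN14* the TSS were 0.032 kb apart. *CAST*, which encodes the calpain inhibitor calpastatin, had a member promoter at 88.8 ± 1.07 (SD, n = 4) and a promoter with peaks in all 8 lists 40.5 kb away. *PHF19*, a Polycomb protein, *MAST4*, a kinase, *ABL1*, a tyrosine kinase, *FBXW7*, a ubiquitin ligase subunit, and *RIGI*, an RNA sensor, followed the same pattern, with distances from 8.28 kb (*PHF19*) to 408 kb (*MAST4*). Each distance joins 1 TSS at a member region to 1 TSS at the other region, and the nearest such pair was not sought. *MAST4* had 2 member regions, of which 1 was measured. These 6 genes were picked after their values were seen. The other 612 genes had no SKBR3 peak at any TSS. A pair of member regions was found at 21 genes, among them *KDM2B* (76.5 and 68.8), *DTNA* (94.5 and 34.1) and *NFIX* (71.7 and 58.7).

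The DNA of member promoters was compared over 250 bases before to 50 after the TSS. A promoter was CpG-rich when it had a GC content of at least 50% and an observed over expected CpG ratio of at least 0.6. This held for 66.7% of members, 86.3% of promoters in all 8 lists, 36.1% of SKBR3-specific promoters and 65.5% of all protein-coding genes. Members were therefore close to the average gene and lay between the other classes. The AP-1 site (TGACTCA, both strands) was in 3.28% of members, 9.47% of SKBR3-specific promoters and 3.57% of all genes. The TATA box (TATAAA) was in 8.55% of members, 10.0% of SKBR3-specific promoters, 4.86% of promoters in all 8 lists and 9.73% of all genes. The FOX motif (TGTTTAC) was in 3.56% of members, 3.16% of SKBR3-specific promoters and 2.42% of all genes, and its other form (TATTTAC) in 1.71% of members and 1.73% of all genes. These matches describe letters and not sites in use.

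Promoters of the chromosome 19 run had a sequence of their own kind. In it, 3 of 21 (14.3%) were CpG-rich. All 21 held a CCAAT box, which 37.3% of members and 36.0% of all genes did, and 17 (81.0%) held the ETS motif CCGGAAG, compared with 10.7% of members and 14.1% of all genes. In the 17 genes of the run with a matching RefSeq promoter, CCAAT in the orientation shown above was found in each, between 103 and 23 bases before the TSS, and 12 had 2 or more copies in that orientation. On either strand together, 13 of the 17 had 2 or more (76.5%), against 11.3% of all RefSeq promoters. Zinc finger genes that were no members had the CCAAT box in 44.1% and the ETS motif in 36.8% of 503 promoters. These genes are relatives within a cluster, as the shared bases of *ZNF429* and *ZNF675* show, and their promoters are not independent of each other.

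Finally, it was asked whether TWEAK changed acetylation at these promoters. The test was limma on log2 fold enrichment, centred on the median of each library, over all 29868 regions present in the 4 MDA-MB-453 lists, which leaves out regions whose peak appeared or disappeared with TWEAK, with 2 libraries a group and Benjamini-Hochberg adjustment. It called 62 regions (0.208%), 9 of them higher and 53 lower with TWEAK, and none of these was a member (0 of 702, smallest adjusted p = 0.121 in limma). At an unadjusted p under 0.05 there were 60 members (8.55%, 41 higher and 19 lower), close to the 9.11% of all regions. The log2 change of the members had a median of 0.02 and a middle range of −0.07 to 0.13. All regions had a median of −0.01 and a middle range of −0.11 to 0.09. Leaving out untreated replicate 1, untreated replicate 2, TWEAK replicate 1 or TWEAK replicate 2 gave 140, 193, 176 and 108 called regions, of which 2, 2, 1 and 0 were members. Both TWEAK libraries were above both untreated ones for 147 members (20.9%, against 17.8% of all regions) and below for 103 (14.7%, against 21.4%).

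The members with the smallest p-values were looked at singly, though none passed the adjustment. *INPP5B*, an inositol phosphatase, had fold enrichments of 6.16 and 5.71 in untreated and 4.22 and 3.65 in TWEAK libraries, with a log2 change of −0.57 ± 0.14 (SE, adjusted p = 0.121 in limma). The region of *EFCC1* had 10.2 and 11.3 without and 8.29 and 7.67 with TWEAK, and that of *CSRP3*, a muscle LIM protein, 6.11 and 6.21 without and 4.52 and 4.12 with it. In these 3 regions the groups did not overlap, and the TWEAK values were the lower ones. Both traits follow from the choice of the smallest p-values in that direction. Groups lay apart in the same way for 14.7% of members and 21.4% of all regions. The genes as a whole did not share that direction. The other member region of *INPP5B* had fold enrichments of 3.55 and 3.23 without and 4.19 and 4.36 with TWEAK, a log2 change of 0.36 ± 0.14 (SE, adjusted p = 0.428 in limma), and that of *EFCC1* had a log2 change of 0.09 ± 0.15 (SE), with overlapping groups. In the other direction, *QDPR*, which recycles tetrahydrobiopterin, had fold enrichments of 4.88 and 4.23 without and 6.95 and 5.90 with TWEAK, a log2 change of 0.52 ± 0.14 (SE, adjusted p = 0.164 in limma). A gene without a symbol, ENSG00000259060, had 4.43 and 5.13 without and 6.43 and 6.86 with it, and *FNDC10* had 2.95 and 2.97 without and 4.20 and 4.08 with it.

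**Figure D5:**
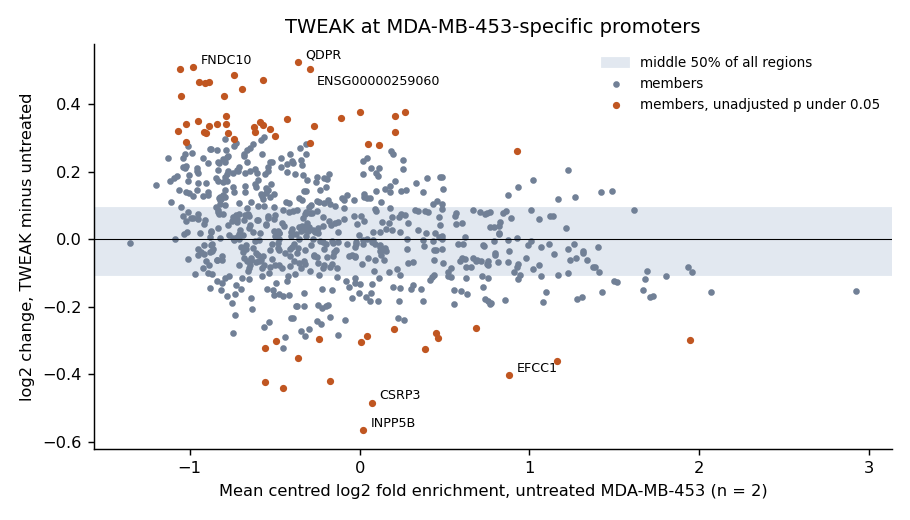
Change in log2 fold enrichment with TWEAK (vertical axis, TWEAK minus untreated, 2 libraries each) against mean centred log2 fold enrichment in untreated MDA-MB-453 cells (horizontal axis) for the 702 members. Orange points have an unadjusted p under 0.05 and none passed the adjustment. The shaded band, −0.11 to 0.09, is the middle range of all regions.

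The named groups gave no more than this. *KCNK1* changed by −0.15 ± 0.11 on the log2 scale (SE), *CDH1* by −0.13 ± 0.09, *TRAF5* by −0.15 ± 0.09 and *CXCL8* by −0.20 ± 0.14, and their adjusted p-values were all above the threshold. Regions on the interferon list had a median change of −0.0045, those of the zinc finger family 0.0065 and those of the homeobox family 0.027. With 2 libraries a group, the median SE of a member was 0.14, so small changes were not detectable. The largest changes of members, −0.57 and 0.52, did not pass the adjustment either, so changes of that size could be missed as well.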

How the data were processed

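H3K27ac ChIP-seq peak lists of 8 libraries were analysed. By the study's methods and the submitters' processing notes, the authors aligned reads to hg38 (Bowtie2), called peaks in each library against its input (MACS2) and took out blacklisted regions (bedtools). Versions and calling options are not given in the sources used here. The 9 columns of a deposited list, which has no header, include a whole-number score, a fold enrichment ratio, a −log10 p-value and a −log10 q-value. Reads were not used, so the depth is unknown and counting intervals cannot be given. The score was used only to check the layout.

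TSS were those of basic protein-coding transcripts in GENCODE release 44. Presence meant an overlap of at least 1 bp. TWEAK and untreated libraries were compared with limma 3.58.1 (R 4.3.3, trended variance, no pseudocount), adjusted over all regions with a threshold of 0.05. Tested on simulated data made from these libraries, with the same noise for every region, it recovered all regions given a known change. The changes given were larger than any seen at a member (−0.57 to 0.52 on the log2 scale). Recovery of changes as small as those of the members was not tried. Replicates are named as biological by the study. The members and gene lists were chosen with earlier results of these data known. Genes were named by rule: the 10 highest percentiles, the 5 widest, genes on the lists and up to 4 a family, the 3 smallest p in each direction, the 3 lowest percentiles, those nearest the 1 kb limit, and genes with more than 1 member region. Exceptions are stated. The interferon and cilia lists, the interferon element and the count outside the chromosome 19 stretch were added after seeing the data. Inputs, chromosome Y and unplaced sequence were not analysed here. Alternatives are in the closing section. Some genes on the lists are not reported here.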

Additional observations from a re-analysis of the deposited data

How the results depend on the processing

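The number of members, 702, lay between 552 (a peak over at least 50% of the region in each MDA-MB-453 list) and 1004 (TSS of every transcript), and between 713 and 811 when 1 library was left out, never past 1.5 times the count. The genes changed more than the count: with peaks of −log10 q of at least 5 alone there were 930 regions at 998 genes, of which 401 were among the 717 member genes. Every other alternative kept at least 568 of the 717. Ranked by peak width in place of fold enrichment, their median percentile was 40.6. The share of member genes with another promoter region marked in SKBR3 was 10.6% when all 4 SKBR3 lists were required. No member was called for TWEAK under any alternative that kept all 4 libraries. Leaving out 1 library gave between 0 and 2 called members (*QDPR* and *RGR* without untreated replicate 1, ENSG00000259060 and *ZNF222* without untreated replicate 2, *INPP5B* without TWEAK replicate 1), and between 108 and 193 regions called in all in place of 62, where the single library left in a group is assumed to vary like the other group. The called regions numbered 0 with bp covered in place of fold enrichment, 39 with quantile normalization and 38 among regions of −log10 q of at least 5, and 88 without centring. The median log2 change of the members was −0.014 with bp covered and −0.0070 without centring, and 0.011 to 0.034 when 1 library was left out. With the replicate number as a block, 124 regions and 0 members were called. The deviations of same-numbered libraries correlated at −0.016, so the numbers did not pair the libraries. Motif shares rose with the window, as wider windows hold more letters. The cause of the other differences was not tested. The peak threshold and 2 libraries a group limit what these lists can show.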
